A study of Mus musculus with 6 samples.

Results

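The glycolysis and hypoxia response genes described here are 41 genes chosen by name: the glucose transporters, the enzymes from hexokinase to lactate dehydrogenase, the lactate carriers, the Pfkfb and Pdk enzymes that steer glycolysis and pyruvate use, the subunits and degradation machinery of the hypoxia-inducible factors (HIF), and 6 of the HIF target genes. All 41 symbols were found among the 23420 gene symbols of the count table, and 33 of them were among the 11608 genes with enough counts to be tested. Total RNA, depleted of ribosomal RNA, had been sequenced from confluent dishes of eEnd2 cells, a mouse embryonic endothelial line. The line had been stably transfected with human Integrin-β1A carrying GFP in its extracellular part, either wildtype (β1-WT-GFP, grown as WT cultures A, B and C) or with the K794Q mutation, a glutamine for a lysine of the cytoplasmic tail that mimics acetylation (β1-K794Q-GFP, grown as K794Q cultures A, B and C), 3 cultures a group. In both groups a short human β-actin promoter beside a matrix attachment region of the chicken lysozyme gene drove the chimera, the cells were sorted for GFP, and no removal of the mouse Itgb1 gene is named in the sources used here. Cells of low and of high GFP were sorted apart, and the sources used here do not tie the cultures to them. The cultures of a group were grown from sorted cells and are not described as separate transfections, so that p-values measure the spread between these cultures. The cells received no treatment and no low-oxygen condition is named, so that the question the data answer is how the basal level of these genes compared between the integrin forms.

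Glycolysis turns glucose into pyruvate in the cytosol, and endothelial cells are known to draw most of their ATP from it even when oxygen is present. The pyruvate is reduced to lactate and exported with a proton, or enters the mitochondria through pyruvate dehydrogenase. HIF is a dimer of an oxygen-labile α subunit, encoded by Hif1a or Epas1, and the stable β subunit encoded by Arnt. With oxygen, the prolyl hydroxylases Egln1 and Egln3 mark the α subunit for the ubiquitin ligase that contains Vhl, and without it the dimer binds DNA at glycolytic genes and at targets such as Car9 and Adm. This control acts mainly on the α protein, which RNA sequencing does not measure.

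The total per culture lay between 9589826 and 15287191 counts. Levels are given as normalised counts (CPM), CPM scaled with the TMM factors of edgeR, and a count of 0 was read as at most 3 counts, which corresponds to between 0.209 and 0.300 CPM and covers counting error only. WT cultures A and B were much closer to each other than any other pair of a group, with 148 genes at least 2-fold apart against 1021 to 2883, and their counts still differed by more than counting error (chi-square of 10.2 per degree of freedom). All 14 endothelial markers passed the filter, with a summed level of 7161 to 13776 CPM in β1-K794Q-GFP and 8531 to 9764 CPM in WT cultures. Among them the junction gene Cldn5 had no count in K794Q culture B and was at 4.74 CPM in WT culture C, against 252 and 267 CPM in WT cultures B and A. The 5 epithelial markers summed to at most 0.592 CPM, and of the 10 fibroblast and mural markers Prrx1 accounted for most of the 82.7 to 195 CPM in β1-WT-GFP cells, with 2.58 to 3.85 CPM for the whole list in β1-K794Q-GFP cells. WT culture C differed in that 5 of these 10 markers were above 1 CPM, among them Pdgfra at 16.4 and Col1a1 at 5.92 CPM, against 1 marker in each other culture.

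Between the groups, 1 of the 33 tested genes passed both thresholds of the study, a 2-fold difference and an unadjusted p that does not exceed 0.05. This gene was Epas1, encoding HIF-2α, which was higher in β1-K794Q-GFP cells. The share of 3.03% stood beside a background of 5.19% of all tested genes. No adjusted p among the 33 genes was at most 0.05 in edgeR's quasi-likelihood test (background 0.181%), and the smallest adjusted p was 0.324. At an unadjusted p of at most 0.05 there were 3 genes, Pfkm, Pfkfb2 and Epas1, or 9.09% against 10.2% of all tested genes, and DESeq2 also gave none of the 33 genes at an adjusted p of at most 0.05, where it gave 477 of all 11608. The cultures of the groups did not overlap in 3 tested genes, Pfkm, Pfkfb2 and Egln1, which is 9.09% against 16.6% of all tested genes. The log2 fold change was above 0 in 24 genes and below 0 in 9 (all tested genes, 5615 above and 5993 below), with a median of 0.32 (all tested genes, -0.02) and a range from -0.67 to 1.25. This lean depended in part on K794Q culture B. Without it several of the 24 fell below 0, among them Aldoa (-0.26), Gapdh (-0.29) and Pkm (-0.51), while Pdk3 rose above 0 (0.31). In bulk samples such as these, fewer cells of a kind and less RNA per cell cannot be told apart.

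**Figure D1:**
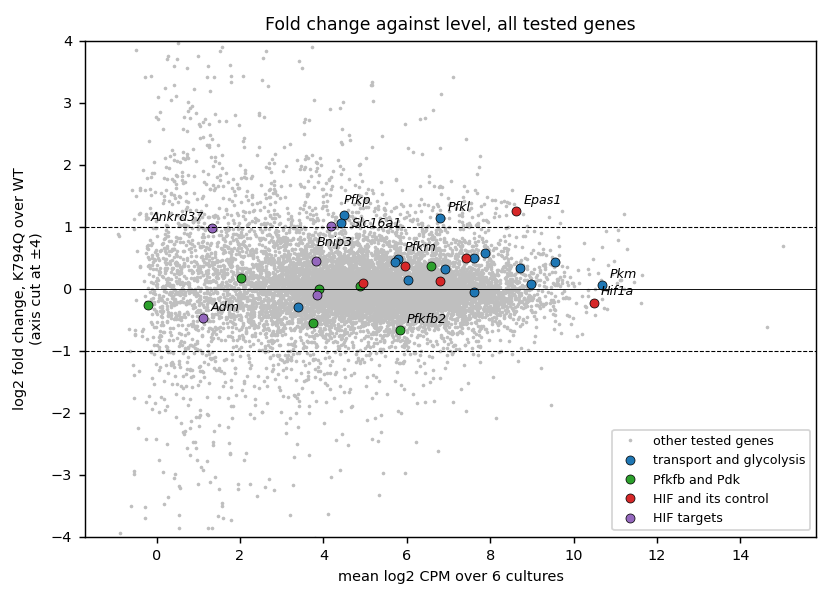
Log2 fold change of β1-K794Q-GFP over β1-WT-GFP cells (y axis, cut at 4 in either direction) against the mean log2 CPM over 6 cultures (x axis) for all tested genes, with the glycolysis and hypoxia genes coloured by role and dashed lines at a 2-fold change. The coloured points span -0.67 to 1.25, and Epas1, at 1.25, is the only one of them that passed both thresholds.

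Glucose enters through the transporters GLUT1 and GLUT3. Slc2a1, encoding GLUT1, stood at 64.7, 129 and 35.8 CPM in K794Q cultures A, B and C and at 41.7, 50.9 and 115 CPM in WT cultures A, B and C. The groups overlapped fully, each with 1 culture above 100 CPM, and the log2 fold change was 0.14 ± 0.57 (SE, adjusted p = 0.969 in edgeR's quasi-likelihood test). Slc2a3, encoding GLUT3, had 2 counts in K794Q culture C, 1 count in WT culture C and none elsewhere, so that GLUT1 held at least 99.5% of the counts of this pair in every culture.

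Hexokinase traps glucose by phosphorylation. Hk1, the constitutive isoform, was measured at 261, 490 and 160 CPM in K794Q cultures A to C and at 193, 202 and 220 CPM in WT cultures A to C, a log2 fold change of 0.57 ± 0.41 (SE, adjusted p = 0.747, edgeR). Its WT cultures lay within 1.14-fold of each other, while its K794Q cultures lay both above and below them, and without K794Q culture B the log2 fold change was 0.05. Hk2, the inducible isoform and a HIF target, read 30.7, 11.2 and 5.76 CPM in the mutant cultures A to C against 3.41, 3.30 and 51.7 CPM in the wildtype cultures A to C. Both the lowest and the highest Hk2 level belonged to β1-WT-GFP cells, with culture C 15.7-fold above culture B. The log2 fold change was -0.30 ± 1.20 (SE, adjusted p = 0.970, edgeR), and without WT culture C it turned to 2.25 (unadjusted p = 0.0334, adjusted p = 0.263), past both thresholds. Hk2 made up 19.1% of hexokinase counts in WT culture C, 10.5% in K794Q culture A and between 1.61% and 3.47% in the other cultures.

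Phosphofructokinase catalyses the committed step and is built from liver, muscle and platelet subunits. The muscle subunit gene Pfkm was at 68.8, 59.4 and 66.3 CPM in K794Q cultures A to C and at 45.3, 50.4 and 43.5 CPM in WT cultures A to C. Every mutant culture lay above every wildtype culture, and the difference was small but even, with a log2 fold change of 0.48 ± 0.15 (SE, unadjusted p = 0.0172, adjusted p = 0.324, edgeR) that stayed under 2-fold. The liver subunit gene Pfkl was at 134, 329 and 80.2 CPM in β1-K794Q-GFP and at 67.7, 73.5 and 105 CPM in WT cultures A to C, with a log2 fold change of 1.14 ± 0.53 (SE, unadjusted p = 0.0710, adjusted p = 0.561, edgeR). K794Q cultures A and B were the highest of the 6, and the groups overlapped, since K794Q culture C lay under WT culture C. Without K794Q culture B the log2 fold change of Pfkl was 0.39 (unadjusted p = 0.277, edgeR), whereas it passed both thresholds without K794Q culture C (1.5) and in DESeq2. It lies on chromosome 10 (chr10:77986947-78010083, GRCm38), where its 24 nearest tested genes also had a median log2 fold change of 0.58, and the part of this segment in the value of Pfkl was not tested.

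For the platelet subunit, Pfkp read 31.0, 79.6 and 11.6 CPM in β1-K794Q-GFP and 12.4, 11.5 and 29.5 CPM in WT cultures A to C. This is a 6.86-fold span within the mutant cells alone, and the log2 fold change of 1.19 ± 0.74 (SE, adjusted p = 0.693, edgeR) was within that spread, with 0.25 when K794Q culture B was left out (unadjusted p = 0.696) and 1.63, past both thresholds, when K794Q culture C was left out (adjusted p = 0.515). About 15.4% of the 50-base stretches of its coding transcripts occur also in Pitrm1, so that its counts may hold reads of that gene. Pfkl took the largest share of phosphofructokinase counts in every culture, from 50.7% in K794Q culture C to 70.3% in K794Q culture B, where Pfkm had its lowest share, 12.7%. None of the subunit shares differed between the groups beyond the cultures' spread (exact permutation p = 0.7 to 0.9, two-sided, where 0.1 is the smallest that 3 against 3 allows).

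In the 7 other tested enzymes that carry glucose-6-phosphate to pyruvate, Gpi1, Aldoa, Tpi1, Gapdh, Pgk1, Pgam1 and Pkm, K794Q culture B was the highest and K794Q culture C the lowest of the mutant cultures. They had log2 fold changes between -0.06 and 0.49, and none had an unadjusted p under 0.05 (edgeR, lowest adjusted p 0.837). Pkm, the pyruvate kinase gene, was at 1578, 3003 and 849 CPM in the mutant cultures A to C and at 1435, 1627 and 2145 CPM in the wildtype cultures A to C. The mean of Pkm was 1810 ± 1095 CPM (K794Q) and 1735 ± 367 CPM (WT, both SD over 3 cultures) and the log2 fold change was 0.06 ± 0.49 (SE, adjusted p = 0.981, edgeR), although the mutant cultures were 3.54-fold apart. Scaled to the length of its exons, Pkm was the most abundant of the 41 genes in β1-WT-GFP cells, at 668 ± 141 CPM per kb (SD, n = 3), followed by Gapdh (358 ± 211), Hif1a (294 ± 92.3), Aldoa (277 ± 30.8) and Ldha (206 ± 60.6), and Gapdh, Hif1a and Aldoa differed from each other by less than the SD of Hif1a.

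Several of these levels are uncertain because reads from shared stretches cannot be assigned to 1 gene. Pgk1 shared 68.0%, Gapdh 58.4%, Pgam1 41.5%, Gpi1 24.5% and Pkm 23.7% of their 50-base stretches with other annotated transcripts, mainly processed copies. Of their 100-base stretches, Pgk1 shared 67.0%, Gapdh 53.1% and Pgam1 39.7%, but Gpi1 only 7.04% and Pkm 7.52%. Eno1, the main enolase gene, had 0 counts in every culture. Other genes hold 49.5% of the 50-base stretches of Eno1, and the cause of the 0 counts was not tested. The Eno1 copy Gm5506 (Eno1b), which holds 48.4% of those stretches, had 306, 578 and 232 counts in β1-K794Q-GFP and 217, 399 and 1267 counts in WT cultures A to C. The level of enolase-1 RNA could therefore not be read from Eno1. The neuronal enolase gene Eno2 had 0, 0 and 2 counts in the mutant against 5, 7 and 12 counts in the wildtype cultures A to C, too few to be tested, with each mutant culture at or under the 3-count floor. Aldoc, the brain aldolase, had at most 7 counts in a culture.

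Lactate dehydrogenase and the monocarboxylate transporters form the exit of the pathway. Ldha, encoding the subunit that favours lactate, was at 523, 678 and 277 CPM in β1-K794Q-GFP and at 311, 337 and 521 CPM in WT cultures A to C (log2 fold change 0.34 ± 0.39, SE, adjusted p = 0.865, edgeR). The groups overlapped fully. Ldhb, encoding the subunit that favours pyruvate, had 0 counts in all 6 cultures, and 21.0% of its 50-base and 6.44% of its 100-base stretches also occur in the copy Gm5514.

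Slc16a1, encoding the lactate carrier MCT1, was at 34.1, 43.1 and 25.1 CPM in β1-K794Q-GFP and at 8.40, 9.50 and 31.3 CPM in WT cultures A to C. The 3 mutant cultures and WT culture C formed 1 range, well above WT cultures A and B. The log2 fold change was 1.05 ± 0.56 (SE, unadjusted p = 0.105, adjusted p = 0.620, edgeR), which ranged from 0.73 to 1.23 when any culture other than WT culture C was left out and was 1.94 (adjusted p = 0.0810), past both thresholds, without WT culture C. Slc16a3, encoding the hypoxia-inducible exporter MCT4, had 440 counts (43.4 CPM) in K794Q culture B, 4 counts in culture A, none in culture C and none in any WT culture. In that single culture it reached 50.2% of the counts of the pair, so that MCT4 RNA was as abundant there as MCT1 RNA in counts, and because 5 of the 6 cultures were at or near 0 it did not pass the filter for the test. When no filter was applied, Slc16a3 and Eno2 passed both thresholds besides Epas1, at no adjusted p of at most 0.05. The call of Slc16a3 rested on K794Q culture B alone, and that of Eno2 on counts near 0 in the mutant and at most 12 in the wildtype cultures.

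**Figure D2:**
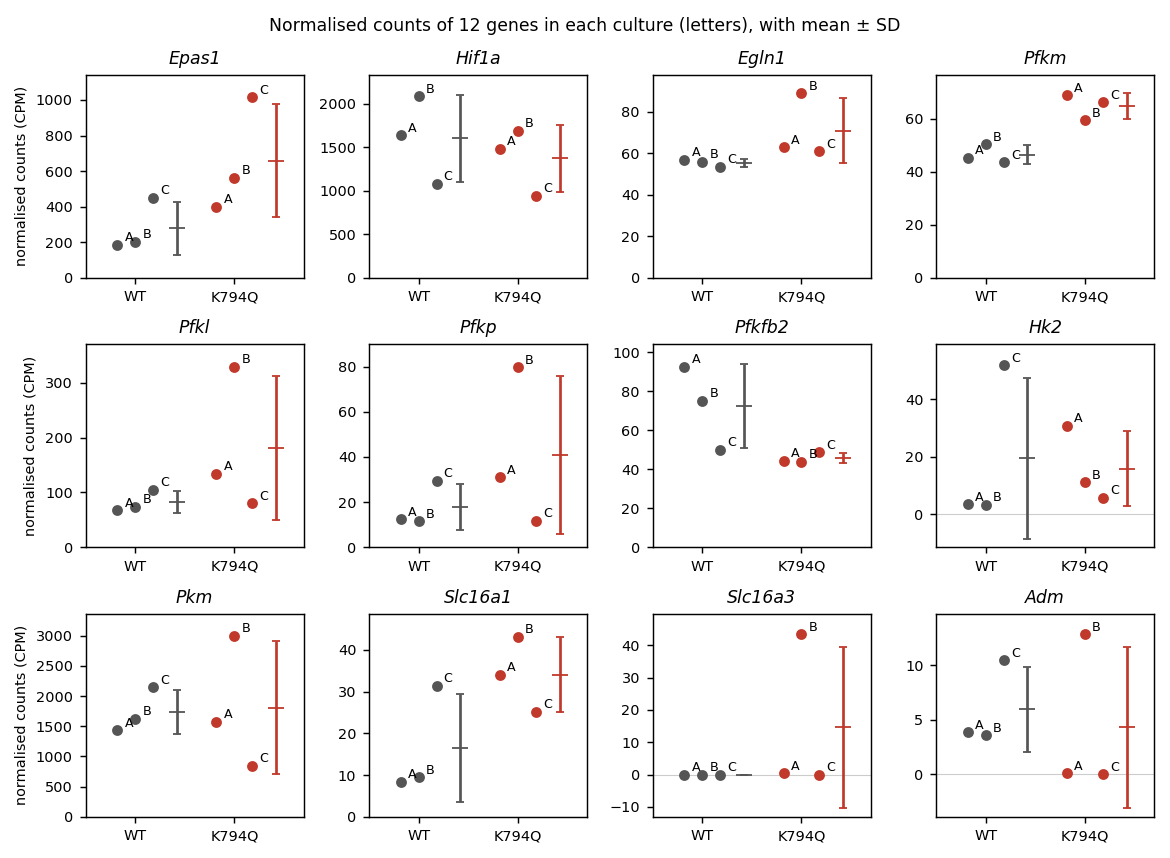
Normalised counts (CPM, y axis, linear) of 12 genes in β1-WT-GFP (grey) and β1-K794Q-GFP (red) cells, with a point for each culture (A, B, C) and a bar for the mean ± SD of 3 cultures. Pfkm, Egln1 and Pfkfb2 separate the groups, Epas1 has its highest values in the mutant cultures but overlaps at 400 against 448 CPM, and in Pfkl, Pfkp, Pkm, Slc16a3 and Adm the point of K794Q culture B lies above all others.

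The Pfkfb enzymes make and break down the sugar bisphosphate that activates phosphofructokinase. Pfkfb2 was at 44.4, 43.8 and 48.7 CPM in K794Q cultures A to C and at 92.6, 75 and 49.9 CPM in WT cultures A to C. The mutant cultures all lay below the wildtype cultures, by a margin of little more than 1 CPM at culture C, with a log2 fold change of -0.67 ± 0.25 (SE, unadjusted p = 0.0338, adjusted p = 0.419, edgeR). Pfkfb2 lies at chr1:130689182-130729253 (GRCm38), and its 24 nearest tested genes had a median log2 fold change of -0.44, whose part in the value of Pfkfb2 was not tested. In addition, 25.0% of its 50-base stretches also occur in other genes, 22.9% in the overlapping transcript Gm29427. Pfkfb3, the isoform best known from endothelial sprouting, was at 29.0, 24.9 and 41.7 CPM in the mutant cultures A to C and at 18.2, 20.9 and 53.4 CPM in the wildtype cultures A to C (log2 fold change 0.05 ± 0.46, SE, adjusted p = 0.983, edgeR), highest in culture C of both groups. It made up 48.8% of the Pfkfb counts in WT culture C and 15.8% and 21.0% in WT cultures A and B, while K794Q cultures lay between 32.8% and 44.2% (exact permutation p = 0.4, two-sided). Pfkfb1 and Pfkfb4 stayed at or under 5.08 and 2.37 CPM, and Pfkfb4 had 24 counts in K794Q culture B and 0 in culture A.

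Pyruvate dehydrogenase kinases switch off the entry of pyruvate into the mitochondria. Pdk1, a HIF target, was at 116, 194 and 56.8 CPM in β1-K794Q-GFP and at 115, 133 and 36.8 CPM in WT cultures A to C, lowest in culture C of both groups (log2 fold change 0.37 ± 0.60, SE, adjusted p = 0.910, edgeR). Pdk2 was nearly constant in the mutant cells, at 11.5, 10.8 and 11.1 CPM, and stood at 19.2, 18.8 and 11.2 CPM in WT cultures A to C (log2 fold change -0.56 ± 0.27, SE, unadjusted p = 0.0809, adjusted p = 0.577, edgeR). Its groups overlapped only through WT culture C. Pdk3 lay between 7.70 and 23.5 CPM with close group means (log2 fold change -0.01 ± 0.47, SE), and Pdk4 had at most 3 counts. Pdk1 provided between 51.5% and 91.3% of the Pdk counts, and its share was lowest in culture C of each group, where Pdk3 made up 23.3% (K794Q) and 32.9% (WT) of the counts.

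Among the HIF genes, Epas1 (chr17:86753700-86833410, GRCm38) was at 400, 563 and 1014 CPM in K794Q cultures A to C and at 184, 201 and 448 CPM in WT cultures A to C. The highest 2 levels were those of K794Q cultures B and C, and the groups overlapped, since K794Q culture A was under WT culture C. The means were 659 ± 318 and 277 ± 148 CPM (SD over 3 cultures), so that the log2 fold change was 1.25 ± 0.50 (SE, unadjusted p = 0.0444, adjusted p = 0.468, edgeR). The call was lost when K794Q culture B (log2 fold change 1.35), K794Q culture C (0.80), WT culture A (1.02) or WT culture B (1.06) was left out, and its direction was kept each time. Epas1 shares no 50-base stretch with another gene, and its 24 nearest tested genes had a median log2 fold change of -0.09. The 6 proliferation markers, from Mki67 to Mcm2, also summed highest in culture C of both groups, at 1564 and 1567 CPM against 439 to 1063 CPM in the other cultures, and their part in the level of Epas1 was not tested.

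Hif1a, encoding HIF-1α, was at 1482, 1690 and 940 CPM in the mutant and at 1638, 2084 and 1081 CPM in the wildtype cultures A to C, lowest in culture C of each group, where Epas1 was highest (log2 fold change -0.22 ± 0.37, SE, adjusted p = 0.910, edgeR). Of the counts of both α subunits together, Epas1 took 21.3%, 25.0% and 51.9% in K794Q cultures A to C and 10.1%, 8.78% and 29.3% in WT cultures A to C. The mean share was 32.7 ± 16.7% against 16.1 ± 11.5% (SD, n = 3 each), a difference within the spread between cultures (exact permutation p = 0.3, two-sided). Summed over both genes the raw α subunit counts lay between 19553 and 22852 per culture. These sums are not scaled for depth, and the culture totals differed, so that the range does not compare α subunit levels. Arnt, encoding their common partner, was the steadiest of the HIF genes, at 117, 122 and 107 CPM in the mutant and 112, 105 and 100.1 CPM in the wildtype cultures A to C (log2 fold change 0.13 ± 0.15, SE, adjusted p = 0.865, edgeR).

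The genes that degrade HIF-α were measured as well. Egln1, encoding the main oxygen sensor PHD2, was at 62.9, 88.8 and 60.9 CPM in K794Q cultures A to C and at 56.9, 55.8 and 53.3 CPM in WT cultures A to C. The groups did not overlap, yet the gap between cultures K794Q C and WT A was narrow, and the log2 fold change was 0.36 ± 0.19 (SE, unadjusted p = 0.112, adjusted p = 0.634, edgeR). Egln3, encoding PHD3 and itself a HIF target, was at 278, 288 and 84.4 CPM in the mutant cultures A to C and at 162, 167 and 132 CPM in the wildtype cultures A to C (log2 fold change 0.50 ± 0.46, SE, adjusted p = 0.815, edgeR), so that the mutant cells held both the 2 highest levels and the lowest. Vhl, the substrate receptor of the ligase, was at 32.5, 33.2 and 31.1 CPM in β1-K794Q-GFP and at 33.2, 39.6 and 18.5 CPM in WT cultures A to C (log2 fold change 0.09 ± 0.30, SE, adjusted p = 0.963, edgeR).

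**Figure D3:**
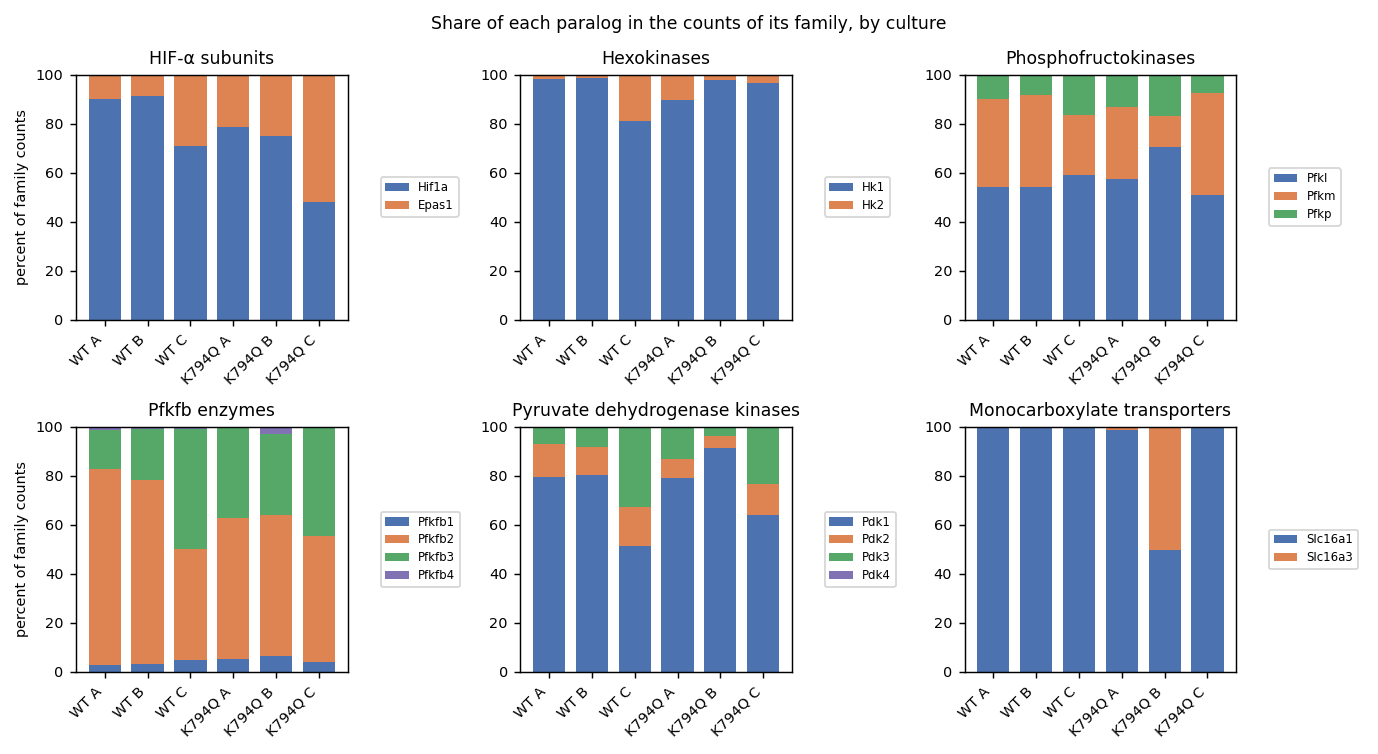
Share of each paralog in the summed counts of its family (percent, y axis) in the 6 cultures (x axis), as stacked bars for HIF-α subunits, hexokinases, phosphofructokinases, Pfkfb enzymes, pyruvate dehydrogenase kinases and monocarboxylate transporters. Epas1 reaches 51.9% of the HIF-α counts in K794Q culture C, Hk2 reaches 19.1% of the hexokinase counts in WT culture C, and Slc16a3 reaches 50.2% of the transporter counts in K794Q culture B and 1.12% or less in the others.

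None of the 5 tested HIF targets passed both thresholds. Bnip3, encoding a receptor that directs mitochondria to autophagy, was at 24.6, 42.2 and 15 CPM in β1-K794Q-GFP and at 10.3, 11.5 and 18.8 CPM in WT cultures A to C. It came closest, with a log2 fold change of 1.01 ± 0.44 (SE, unadjusted p = 0.0604, adjusted p = 0.521, edgeR), and passed both thresholds in DESeq2 (log2 fold change 1.01, adjusted p = 0.390) and without culture C of either group (1.30 without the mutant and 1.33 without the wildtype culture). Without K794Q culture B its log2 fold change was 0.54 (unadjusted p = 0.212, edgeR). Since 59.1% of the 50-base and 31.6% of the 100-base stretches of Bnip3 also occur in copies elsewhere, its level is uncertain. Ankrd37, an ankyrin repeat gene with a strong HIF response, was at 2.31, 8.19 and 1.12 CPM in the mutant and at 2.10, 2.40 and 1.39 CPM in the wildtype cultures A to C (log2 fold change 0.98 ± 0.76, SE, adjusted p = 0.770, edgeR). Its difference rested on K794Q culture B, without which the log2 fold change was -0.19.

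Adm, encoding the vasodilator peptide adrenomedullin, varied most. It had 1, 130 and 0 counts in K794Q cultures A to C and 44, 36 and 150 counts in WT cultures A to C. Thus K794Q culture B, at 12.8 CPM, lay above all wildtype cultures (3.60 to 10.4 CPM) and the other mutant cultures lay at or under the floor, and the log2 fold change was -0.48 ± 1.69 (SE, adjusted p = 0.964, edgeR). Without culture B, Adm passed both thresholds as lower in β1-K794Q-GFP cells (unadjusted p = 0.00167, adjusted p = 0.0780, edgeR). Car9, encoding the tumour hypoxia marker carbonic anhydrase IX, had 0, 18 and 1 counts in the mutant cultures A to C and 0 counts in all wildtype cultures, and was not tested. Ndrg1 and Higd1a lay at 6.71 to 19.7 and 10.4 to 18.9 CPM, with log2 fold changes of -0.10 and 0.44, neither at an unadjusted p under 0.05.

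The largest differences in these genes lay between cultures of a group. K794Q culture B held the highest level of all 6 cultures in 21 of the 33 tested genes (63.6%), where it was highest in 21.9% of all tested genes. This held for 12 of the 15 transport and glycolysis genes, for 3 of the 6 HIF and HIF control genes and for 4 of the 5 HIF targets, but for 2 of the 7 Pfkfb and Pdk genes. K794Q culture C held the lowest level in 12 of the 33 genes (36.4%, against 17.2% of all tested genes), among them Slc2a1, Hk1, Aldoa, Tpi1, Pkm and Ldha. Under library totals in place of TMM, culture B was highest in 18 of the 33 genes (54.5%, against 14.2% of all tested genes). No p is given for these counts, because the genes of a culture are not independent of each other.

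**Figure D4:**
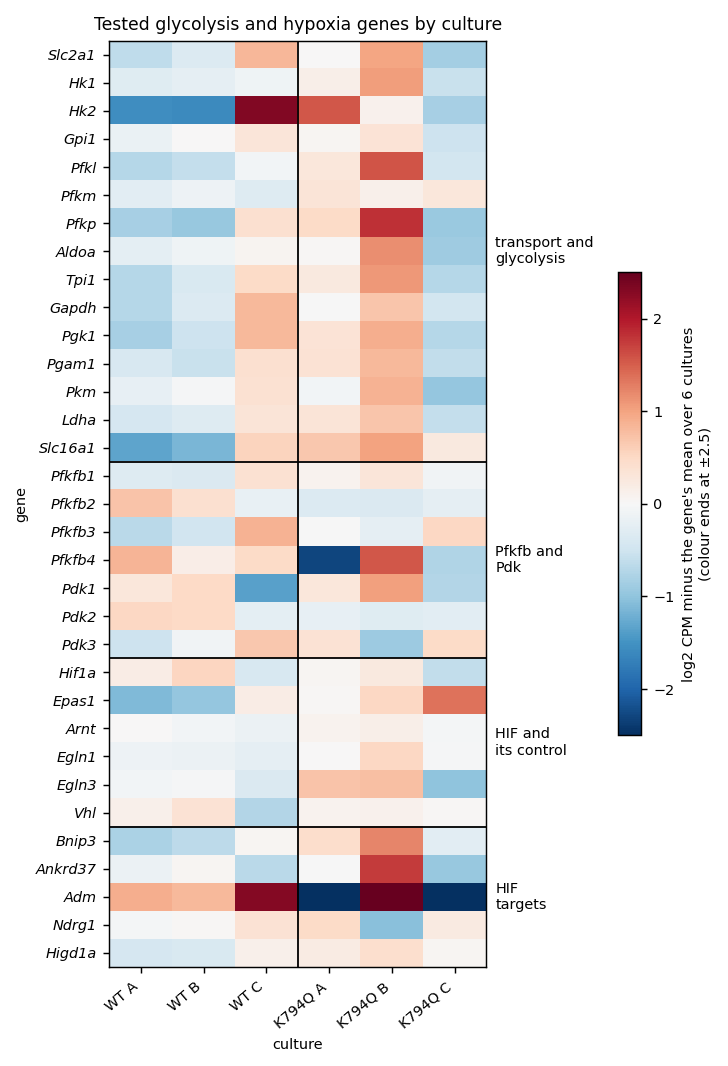
Log2 CPM of the 33 tested genes (rows, grouped by role) in the 6 cultures (columns), as the difference from each gene's mean over the cultures, red for higher and blue for lower, with colours ending at 2.5 in either direction. In the transport and glycolysis block the column of K794Q culture B is red (median 0.91) and those of K794Q culture C and WT culture A are blue (medians -0.61 and -0.63).

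On the log2 scale, the median deviation of the transport and glycolysis genes from their own means was 0.91 in K794Q culture B, 0.28 in culture A and -0.61 in culture C. The corresponding medians in β1-WT-GFP cells were -0.63, -0.34 and 0.40 in cultures A, B and C. Each group thus held cultures on both sides of the mean. The median SD between the cultures of β1-K794Q-GFP cells was 0.74 over the 33 genes and 0.32 over all tested genes on the log2 scale, against 0.45 and 0.31 between WT cultures. K794Q culture B had the smallest TMM factor, 0.907, the highest summed endothelial markers, 13776 CPM, and the lowest summed proliferation markers of its group, 538 CPM. Yet only 12 of the 14 endothelial markers were above 1 CPM in it, against 13 or 14 in the other cultures, with Cldn5 at 0 and Sox17 at 0.296 CPM. The part of these features in the glycolytic RNA levels of K794Q culture B was not tested.

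**Figure D5:**
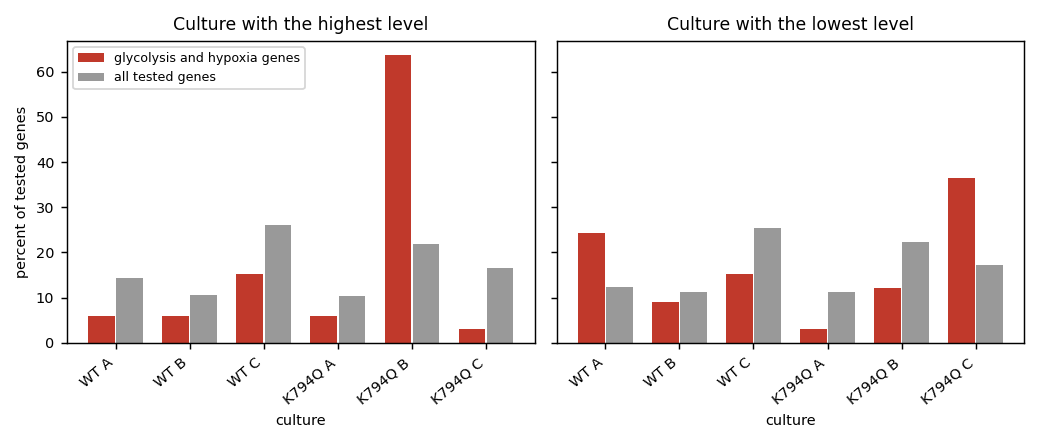
Percent of the tested glycolysis and hypoxia genes (red, 33 genes) and of all tested genes (grey, 11608 genes) that have their highest (left) or lowest (right) level in each of the 6 cultures (x axis). The red bar of K794Q culture B reaches 63.6% in the left panel against a grey bar of 21.9%, and that of K794Q culture C reaches 36.4% in the right panel against 17.2%.

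HIF dimers bind a short core sequence, and promoters with it are shown for some of the genes that stood out in K794Q culture B. The search covered the RefSeq promoter windows of mouse GRCm38.p6, 250 bases before to 50 bases after each annotated start, for ACGTG or GCGTG on either strand, which on the strand shown also read as CACGT or CACGC, and overlapping matches such as CACGTG, which is also an E-box, count once for each strand. Windows were found for 38 of the 41 genes, with none for Epas1, Ndrg1 and Slc2a3. The core was present in 74.5% of the 47 windows of tested glycolysis and hypoxia genes, in 62.9% of the 11004 windows of tested genes and in 43.8% of all 32851 windows. The windows of Slc16a3 (chr11:120948817-120949116, plus strand), Ankrd37 (chr8:45999801-46000100, minus strand), Bnip3 (chr7:138909457-138909756, minus strand) and Pfkp (chr13:6648722-6649021, minus strand) are printed as examples. These genes, chosen after their values were seen, had their highest level in that culture and hold the core. Other genes highest in that culture are not printed. The windows are written 5′ to 3′ on the strand of the gene, with the matches in capitals.
Slc16a3: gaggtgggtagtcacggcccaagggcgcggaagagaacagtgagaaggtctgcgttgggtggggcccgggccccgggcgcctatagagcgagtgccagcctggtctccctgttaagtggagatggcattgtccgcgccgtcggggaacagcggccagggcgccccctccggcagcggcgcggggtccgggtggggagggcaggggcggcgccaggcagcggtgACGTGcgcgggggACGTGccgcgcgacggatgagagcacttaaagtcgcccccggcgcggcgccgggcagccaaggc
Ankrd37: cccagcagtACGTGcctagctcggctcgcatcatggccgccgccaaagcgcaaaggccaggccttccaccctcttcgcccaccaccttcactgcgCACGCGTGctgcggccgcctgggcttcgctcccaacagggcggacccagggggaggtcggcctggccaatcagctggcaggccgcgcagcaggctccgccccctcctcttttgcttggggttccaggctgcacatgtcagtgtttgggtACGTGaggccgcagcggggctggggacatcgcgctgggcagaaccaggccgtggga
Bnip3: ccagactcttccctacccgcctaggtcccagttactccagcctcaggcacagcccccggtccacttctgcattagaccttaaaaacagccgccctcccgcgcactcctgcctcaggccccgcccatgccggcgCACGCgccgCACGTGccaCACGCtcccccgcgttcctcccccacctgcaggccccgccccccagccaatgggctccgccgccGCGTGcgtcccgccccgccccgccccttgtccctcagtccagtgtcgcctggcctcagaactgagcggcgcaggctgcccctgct
Pfkp: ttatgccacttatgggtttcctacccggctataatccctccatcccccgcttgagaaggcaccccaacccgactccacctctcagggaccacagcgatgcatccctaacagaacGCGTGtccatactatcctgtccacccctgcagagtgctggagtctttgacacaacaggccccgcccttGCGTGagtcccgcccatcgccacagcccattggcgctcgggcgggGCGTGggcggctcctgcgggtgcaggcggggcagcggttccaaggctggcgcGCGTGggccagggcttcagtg
Slc16a3 held 2 matches, both ACGTG and within 30 bases before the annotated start, Ankrd37 and Pfkp held 4 each, and Bnip3 held 5. Ldha, with up to 7 matches in a window, had the most of all 38 genes, whereas Eno2, Gpi1, Tpi1 and Vhl had none. Of these, Gpi1 and Tpi1 also had their highest level in K794Q culture B, and whether matches go with a high level there was not tested. A match is a description of the letters and not of binding, which was not measured.

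Beyond the 41 genes, 129 other genes of glucose use and the hypoxia response were examined, of which 101 were tested. Both thresholds were passed by 5 of them (4.95%, against 5.19% of all tested genes), all higher in β1-K794Q-GFP cells: 4 of the 45 tested other hypoxia targets and 1 of the 10 tested transcriptional regulators of glycolysis. None of the 16 tested other genes of glucose use, the 10 genes of pyruvate dehydrogenase and pyruvate import, the 8 genes of the pentose phosphate pathway or the 13 tested other HIF control genes passed. The median log2 fold change over the 101 genes was -0.04. Cdkn1a, encoding the cell cycle inhibitor p21 and best known as a p53 target, was at 394, 306 and 306 CPM in the mutant and at 31.8, 35.5 and 46.9 CPM in the wildtype cultures A to C (log2 fold change 3.14 ± 0.24, SE, adjusted p = 0.0198, edgeR), and was the only one at an adjusted p of at most 0.05.

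Klf4, encoding a flow-responsive factor, was at 192, 283 and 153 CPM in β1-K794Q-GFP and at 71.0, 72.6 and 102 CPM in WT cultures A to C (log2 fold change 1.36 ± 0.29, SE, adjusted p = 0.161, edgeR). Pgf, encoding placental growth factor, was at 68.0, 112 and 8.86 CPM against 3.85, 3.30 and 5.43 CPM (log2 fold change 3.90 ± 0.89, SE, adjusted p = 0.183, edgeR). Loxl2, a collagen cross-linking oxidase, was at 28.8, 15.4 and 25.9 CPM against 1.75, 2.40 and 9.61 CPM, and Aplnr, the apelin receptor, at 1.16, 15.5 and 3.44 CPM against 0.700, 0.500 and 0 CPM. The cultures of the groups did not overlap in any of these 5 genes. They were among 9 of the 101 genes without overlap (8.91%, against 16.6% of all tested genes). Klf4, Pgf and Aplnr were highest in K794Q culture B, and Cdkn1a and Loxl2 in K794Q culture A. Over the 101 genes, K794Q culture B was highest in 25.7% (all tested genes, 21.9%) and WT culture C in 37.6% (all tested genes, 26.0%).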

How the data were processed

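Total RNA of 3 β1-K794Q-GFP and 3 WT cultures was sequenced after removal of ribosomal RNA. The table the authors deposited holds raw counts for each mouse gene symbol, without normalization, in 6 columns named for the cultures. The submitters' processing notes name STAR 2.7.4a, HTSeq 0.9.1, bcl2fastq 2.20.0, edgeR 3.38.4 and mm10; the annotation and the strand setting are not given in the sources used here. The study describes 2 sequencing runs and the deposited table names neither.

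Counts were filtered with filterByExpr, scaled with TMM and compared with the quasi-likelihood F-test of edgeR 4.0.16 in R 4.3.3, two-sided, with Benjamini-Hochberg adjustment over 11608 genes. The script was first tested on simulated data. SE is the size of the log2 fold change divided by the square root of F. Log2 CPM, used for deviations, SDs and pairs of cultures, took a prior count of 2. Shares of paralogs were compared with an exact permutation test. Positions, exon lengths and shared 50-base and 100-base stretches came from GENCODE M21 (GRCm38) and promoters from RefSeq (GRCm38.p6). Tables and figures were made with Python 3.11.15 (matplotlib 3.10.9, numpy 2.4.6, pandas 2.3.3, scipy 1.17.1). Alternatives were DESeq2 1.42.0, the likelihood ratio test, other filters and scalings, a block for the culture letter and fits lacking 1 culture.

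The genes and lists were chosen with earlier results of these data known. Every gene of the 41 is accounted for. Values in every culture are given for genes past both thresholds, genes whose groups do not overlap, the 10 tested genes with the largest log2 fold change in either direction, and a set of genes chosen for their role (Slc2a1, Hk2, Pfkfb3, Ldha, Pdk1, the HIF and HIF control genes, Bnip3, Car9, Adm, Ankrd37). Of the wider lists the genes past both thresholds are named, and in the closing section 3 others chosen after their values were seen. Leukocyte markers, the list not given elsewhere, summed to 31.8 to 104 CPM with 1 or 2 of 6 genes above 1 CPM. Some list symbols are stored under older names.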

Additional observations from a re-analysis of the deposited data

How the results depend on the processing

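Epas1 was the only gene of the 41 past both thresholds with TMM, RLE or library totals, with at least 10 counts in every culture and with the replicate block. The count was 3 without a filter on low counts, 3 with DESeq2 and 3 with the likelihood ratio test, where 5.73%, 5.99% and 6.26% of all tested genes passed, and it ranged from 0 to 4 when 1 culture was left out (0 without WT culture A or B, 4 without WT culture C, 3 without K794Q culture C). With the replicate block it was 1, and no member had an adjusted p of at most 0.05 under any of these settings. Whether the letters pair the cultures could not be settled from the counts. Deviations of same-letter cultures A, B and C correlated at 0.0947, 0.0548 and 0.0952, and those of different letters at -0.152 to 0.0954. K794Q cultures B and C correlated best with their own letter, and K794Q culture A about equally with WT cultures A and B. With the block, Epas1 had a log2 fold change of 1.26 (unadjusted p = 0.00404, adjusted p = 0.304, edgeR). The block moved the count over all genes from 603 to 571. Without a filter it was 916, and leaving out 1 culture gave 501 to 992 (992 when WT culture C and 942 when K794Q culture B was dropped). The count of the wider lists, 5, was between 4 (at least 10 counts in every culture) and 11 (without WT culture C).

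Of 427 recomputed log2 fold changes of the 33 tested genes, 378 kept direction and side of the thresholds, 10 moved past them, 4 (all of Epas1) dropped out of them and 35 in 17 genes changed sign. With the replicate block, Hk2 turned to 0.92 and Pkm to -0.093, and Pdk3 turned to 0.018 under library totals. Leaving out 1 culture, the log2 fold change ranged from -0.46 to 0.73 for Slc2a1, from -1.23 to 2.25 for Hk2, from -0.26 to 0.15 for Gpi1, from -0.23 to 0.72 for Pfkfb3, from -2.53 to 0.31 for Pfkfb4, from -0.26 to 0.79 for Aldoa, from -0.058 to 0.92 for Tpi1, from -0.29 to 0.68 for Gapdh, from -0.10 to 1.00 for Pgk1, from -0.51 to 0.40 for Pkm, from -0.12 to 0.71 for Pdk1, from -0.26 to 0.40 for Pdk3, from -0.43 to 0.010 for Hif1a, from -0.16 to 0.32 for Vhl, from -0.19 to 1.42 for Ankrd37, from -6.73 to 0.21 for Adm and from -0.40 to 0.24 for Ndrg1. The value -6.73 of Adm sets counts of 1 and 0 against the WT cultures, depends on the prior count and is no bound. A fit that leaves out 1 culture has 2 cultures in 1 group. The cause of these changes was not tested beyond the culture left out. The culture order was recomputed under other scalings after the data had been seen: K794Q culture B was highest in 21 genes with RLE and 18 with library totals, and culture C lowest in 12 with each. At these depths, genes with fewer than about 10 counts per culture, such as Eno2, Aldoc and Pdk4, could not be compared.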

Other observations

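Further genes next to the lactate and pyruvate steps were chosen here after their values had been seen, because their cultures did not overlap between the groups. Among the 101 tested genes of the wider lists, 8.91% did not overlap, a smaller share than the 16.6% of all tested genes. Bsg, encoding basigin, the chaperone that brings the lactate carriers to the plasma membrane, was at 285, 353 and 233 CPM in K794Q cultures A to C and at 139, 151 and 191 CPM in WT cultures A to C. Its log2 fold change of 0.86 ± 0.23 (SE, unadjusted p = 0.00977, adjusted p = 0.265 in edgeR's quasi-likelihood test) stayed under 2-fold. Pdha1, encoding the catalytic subunit of pyruvate dehydrogenase, was at 87.3, 88.4 and 81.4 CPM in the mutant and at 101, 119 and 170 CPM in the wildtype cultures A to C, with a log2 fold change of -0.60 ± 0.22 (SE, unadjusted p = 0.0342, adjusted p = 0.421, edgeR). Neither passed both thresholds, and neither was at an adjusted p of at most 0.05. Angptl4, also chosen after its values were seen and a HIF target in the control of lipoprotein lipase, was not tested for its low level, at 0.674, 1.48 and 1.12 CPM in the mutant and 0 to 0.200 CPM in the wildtype cultures.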
